A study of Mus musculus with 12 samples.

Results

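The genes described here are the receptors Notch1, Notch2 and Notch3, the ligand gene Jag1, and the target genes Hes1, Hey1, Hey2 and Heyl of the Notch pathway. They were taken as a list of gene symbols by their place in the pathway, with earlier results of these data known, and all 8 were found among the 17097 genes of the array table. Where a gene has several probe sets, the brightest on average over the 12 arrays is used. The dermal fibroblasts came from 3 female littermate mice aged 2 days, with no genetic change or treatment named in the labels, and each animal gave 1 array for each of 4 populations sorted by flow cytometry. All 4 populations passed the same first gate, which kept cells that carried Pdgfra and CD34 and dropped cells that carried CD45, CD117, CD31 or EpCam. Papillary fibroblasts were then CD26+ Dlk1- Sca1-, reticular cells were CD26- Dlk1+ Sca1-, and the gates called pre-adipogenic were CD26- Dlk1+ Sca1+ and CD26- Dlk1- Sca1+. Each sample was the RNA of 4500 sorted cells, amplified over 21 cycles.

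Notch receptors are membrane proteins that are cut when a ligand such as Jagged1, the product of Jag1, binds them from a neighbouring cell. The freed inner part of the receptor enters the nucleus and joins the DNA-binding protein Rbpj and a Mastermind protein, and this complex turns on genes that include the Hes and Hey family, whose products are transcriptional repressors. In skin the pathway is known for its part in epidermal differentiation and in hair follicles, and in vessels Notch3 and its targets act in the mural cells that wrap the endothelium.

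Values are log2 units of robust multi-array average (RMA) expression, so 1 unit is a 2-fold difference, and levels are given for animals 1, 2 and 3 in that order. Differences are those of population means with the standard error (SE) of a linear model fitted with limma over all 12 arrays, and a difference counts as past the threshold at a Benjamini-Hochberg adjusted p under 0.05 over the 17097 genes. The number of arrays, 3 per population, limits the precision. Fibroblast genes (8 genes such as Col1a1 and Dcn) had a mean of 10.94 to 11.16 on every array. Of the genes of the dropped markers, Ptprc, which encodes CD45, stayed between 3.88 and 3.94 as population means. Pecam1 (CD31) averaged 7.02 in papillary cells and 7.68 to 8.15 elsewhere, and each papillary difference passed (adjusted p = 0.00145 to 0.0405). Kit (CD117) had means of 4.39 to 4.88, and only papillary minus reticular passed (0.48 ± 0.15, adjusted p = 0.0304). Epcam passed in no comparison, but stood at 8.62 on the Dlk1- Sca1+ array of animal 1, against 5.62 to 6.03 on papillary arrays. Dpp4, which encodes CD26, stood at 10.61 in papillary cells and at 6.26 to 6.37 elsewhere. Dlk1 had means of 12.97 (reticular), 12.86 (Dlk1+ Sca1+), 11.39 (Dlk1- Sca1+) and 9.97 (papillary), although the last pair was sorted as lacking the protein. Across genes, which are not independent replicates, arrays of the same population correlated at 0.989 to 0.995, papillary arrays with the other arrays at 0.948 to 0.962, and arrays of the other 3 populations with each other at 0.971 to 0.99.

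RefSeq's promoter table for GRCm38.p6 held 5 of the 8 genes (Notch1, Notch2, Notch3, Jag1 and Hey2), each as 250 bases before the transcript start and 50 after it. These windows were searched on both strands for TGGGAA, the core of the Rbpj motif, for GTGGGAA, which contains it, and for the Hes and Hey motifs CACGTG and CACGCG. The 2 promoters that held a motif more than once are shown, the target gene's for its Rbpj motif and the ligand gene's for CACGCG, with each match in capitals. The Hey2 window reads along the minus strand of chr10:30842781-30843033, and the Jag1 window along the minus strand of chr2:137116521-137116770.
Hey2: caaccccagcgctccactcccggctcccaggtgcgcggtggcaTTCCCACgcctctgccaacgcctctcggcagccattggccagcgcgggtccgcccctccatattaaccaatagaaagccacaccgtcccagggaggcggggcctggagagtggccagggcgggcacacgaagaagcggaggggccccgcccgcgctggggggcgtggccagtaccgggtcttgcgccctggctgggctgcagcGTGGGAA
Jag1: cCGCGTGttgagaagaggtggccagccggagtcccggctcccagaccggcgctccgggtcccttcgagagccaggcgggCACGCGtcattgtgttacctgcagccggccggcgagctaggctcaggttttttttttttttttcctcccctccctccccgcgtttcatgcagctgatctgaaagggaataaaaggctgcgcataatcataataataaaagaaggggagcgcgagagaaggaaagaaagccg

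In the Hey2 window GTGGGAA lay at positions -207 to -201 on the opposite strand, where it is printed as TTCCCAC, and at -4 to 3 on the gene's own strand, counted from the transcript start. In the Jag1 window CACGCG lay at -249 to -244 on the opposite strand, printed as CGCGTG, and at -171 to -166 on the gene's own strand. Notch2 held CACGCG at -42 to -37, and the windows of Notch1 and Notch3 held none of these letters. Of the 32851 promoters of the table, 25.6% held TGGGAA, 6.38% GTGGGAA, 7.15% CACGTG and 9.27% CACGCG on either strand. A match describes the letters of the window alone.

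Among the receptors, Notch1 and Notch3 differed between the populations and Notch2 was close to level. Notch1, the receptor best known from the epidermis and from lymphocytes, was at 8.55, 8.85 and 8.80 in papillary cells (mean 8.73 ± 0.16 SD), at 9.56, 9.61 and 9.34 in Dlk1+ Sca1+ cells (9.50 ± 0.14), at 10.50, 10.14 and 9.96 in Dlk1- Sca1+ cells (10.20 ± 0.27) and at 10.73, 10.75 and 10.99 in reticular cells (10.82 ± 0.14). The groups did not overlap, and each step in this order passed the threshold. Papillary cells were 1.71-fold below Dlk1+ Sca1+ cells (difference -0.77 ± 0.14 SE, adjusted p = 0.000756), Dlk1- Sca1+ cells 1.62-fold above Dlk1+ Sca1+ cells (0.70 ± 0.14, adjusted p = 0.0068), and reticular cells 1.54-fold above Dlk1- Sca1+ cells (Dlk1- Sca1+ minus reticular -0.62 ± 0.14, adjusted p = 0.00615). From end to end, papillary cells were 4.26-fold below reticular cells (-2.09 ± 0.14, adjusted p = 1.39e-07). The upper 2 steps rest on few arrays: without animal 3 the difference of Dlk1- Sca1+ from reticular cells was -0.42 (adjusted p = 0.132), and without animal 2 it was -0.63 (adjusted p = 0.0789), while the difference between the Sca1+ populations was 0.78 without animal 2 (adjusted p = 0.0691).

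Notch3, the receptor of vascular smooth muscle cells and pericytes, followed another order. Its level was 8.16, 8.10 and 8.43 in papillary cells (8.23 ± 0.18), 8.99, 8.54 and 8.70 in Dlk1- Sca1+ cells (8.74 ± 0.23), 9.23, 9.10 and 8.91 in Dlk1+ Sca1+ cells (9.08 ± 0.16) and 9.99, 10.01 and 10.09 in reticular cells (10.03 ± 0.05). Reticular arrays all lay above the others and papillary arrays below, and the 2 Sca1+ populations overlapped. Reticular cells were 3.48-fold above papillary cells (papillary minus reticular -1.80 ± 0.12, adjusted p = 2.17e-07), 1.93-fold above Dlk1+ Sca1+ cells (adjusted p = 0.000328) and 2.44-fold above Dlk1- Sca1+ cells (adjusted p = 1.12e-05). Papillary cells were also below Dlk1+ Sca1+ cells by 1.80-fold (adjusted p = 0.000152) and below Dlk1- Sca1+ cells by 1.43-fold (-0.51 ± 0.12, adjusted p = 0.00707), the latter being -0.35 without animal 1 (adjusted p = 0.0902). Between the Sca1+ populations the difference was -0.34 ± 0.12 (Dlk1- minus Dlk1+, 95% interval -0.61 to -0.07, adjusted p = 0.143), and without the Dlk1- Sca1+ array of animal 1 it was -0.46 and passed (adjusted p = 0.0433).

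Notch2 stood between 10.34 and 10.77 on all 12 arrays. Its means were 10.45 ± 0.10 in papillary, 10.54 ± 0.03 in Dlk1+ Sca1+, 10.55 ± 0.05 in Dlk1- Sca1+ and 10.65 ± 0.10 in reticular cells. The largest difference was papillary minus reticular at -0.20 ± 0.08, with a 95% interval of -0.36 to -0.03 and an adjusted p of 0.0812, and it passed with the animal as a block (adjusted p = 0.026). The other 5 intervals lay within -0.28 and 0.18, so a 2-fold difference in Notch2 would lie outside all 6 of them.

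**Figure D1:**
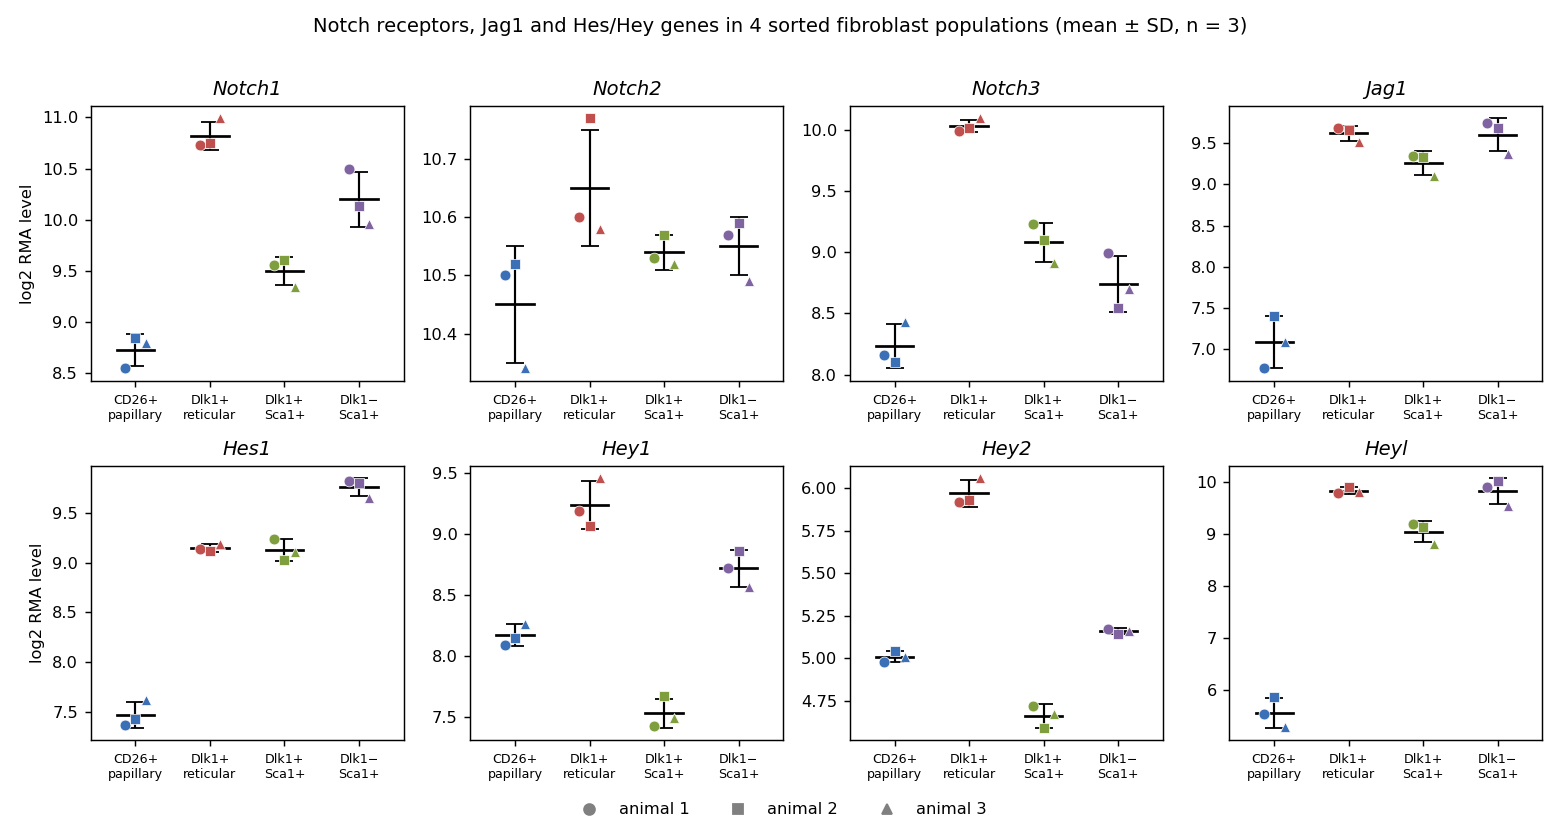
Level of each of the 8 genes (vertical axis, log2 RMA) in the 4 populations (horizontal axis); points are arrays, marked by animal, horizontal bars are means over 3 animals and vertical bars their SD; the vertical axes differ between panels. Heyl falls to 5.27 to 5.85 in papillary cells against 8.80 or more elsewhere, while Notch2 stays between 10.34 and 10.77.

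Jag1, the ligand gene, was lower in papillary cells than in each of the other 3 populations, and no difference among those 3 passed the threshold. It was at 6.77, 7.40 and 7.09 in papillary cells (7.09 ± 0.32), at 9.69, 9.66 and 9.52 in reticular cells (9.62 ± 0.09), at 9.34, 9.33 and 9.10 in Dlk1+ Sca1+ cells (9.26 ± 0.14) and at 9.75, 9.68 and 9.37 in Dlk1- Sca1+ cells (9.60 ± 0.20). Every papillary array lay below every other array, the Dlk1+ Sca1+ arrays lay apart just below the reticular and Dlk1- Sca1+ arrays, and only the last pair overlapped. Papillary cells were 5.80-fold below reticular cells (-2.54 ± 0.15, adjusted p = 4.15e-08), 4.50-fold below Dlk1+ Sca1+ cells (-2.17 ± 0.15, adjusted p = 1.17e-07) and 5.71-fold below Dlk1- Sca1+ cells (-2.51 ± 0.15, adjusted p = 3.38e-08). Dlk1- Sca1+ minus reticular was -0.02 (95% interval -0.34 to 0.29), Dlk1+ Sca1+ minus reticular was -0.37 (-0.68 to -0.05, adjusted p = 0.176), and Dlk1- minus Dlk1+ among the Sca1+ cells was 0.34 (0.03 to 0.66, adjusted p = 0.219). Since each sample is a bulk of sorted cells, fewer cells with the transcript and less transcript per cell cannot be told apart for Jag1 or for any gene here.

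Of the target genes, Hes1, a repressor that is also known to keep precursor cells undifferentiated, was highest in Dlk1- Sca1+ cells. It was at 7.37, 7.43 and 7.62 in papillary cells (7.47 ± 0.13), 9.24, 9.03 and 9.11 in Dlk1+ Sca1+ cells (9.13 ± 0.11), 9.14, 9.12 and 9.19 in reticular cells (9.15 ± 0.04) and 9.82, 9.80 and 9.65 in Dlk1- Sca1+ cells (9.76 ± 0.09). Only the reticular and Dlk1+ Sca1+ groups overlapped, with a difference of -0.02 (95% interval -0.21 to 0.16, adjusted p = 0.957). Hes1 in Dlk1- Sca1+ cells was 1.52-fold above reticular cells (0.61 ± 0.09, adjusted p = 0.000285) and 1.55-fold above Dlk1+ Sca1+ cells (0.63 ± 0.09, adjusted p = 0.000542). Papillary cells were 3.20-fold below reticular (-1.68 ± 0.09, adjusted p = 1.56e-08), 3.15-fold below Dlk1+ Sca1+ (-1.65 ± 0.09, adjusted p = 1.21e-08) and 4.87-fold below Dlk1- Sca1+ cells (-2.28 ± 0.09, adjusted p = 7.43e-10).

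Heyl, a Hey family repressor known downstream of Notch3 in mural cells, had the largest differences of the 8 genes. It was at 5.53, 5.85 and 5.27 in papillary cells (5.55 ± 0.29), 9.18, 9.13 and 8.80 in Dlk1+ Sca1+ cells (9.04 ± 0.21), 9.89, 10.02 and 9.54 in Dlk1- Sca1+ cells (9.82 ± 0.25) and 9.78, 9.90 and 9.81 in reticular cells (9.83 ± 0.06). Papillary arrays lay far below the rest, Dlk1+ Sca1+ arrays came next, and the last pair of populations overlapped. Papillary cells were 19.4-fold below reticular (-4.28 ± 0.15, adjusted p = 6.65e-10), 19.2-fold below Dlk1- Sca1+ (-4.27 ± 0.15, adjusted p = 5.44e-10) and 11.2-fold below Dlk1+ Sca1+ cells (-3.49 ± 0.15, adjusted p = 2.54e-09). The size depends on the probe set: the other 2 probe sets of Heyl gave papillary minus reticular differences of -2.25 and -1.63, with the same call. Their papillary means were 5.27 and 5.46. Like the 5.55 of the probe set used, these lie near the lower quartile of gene means (5.38), so the folds rest on a dim papillary level. Dlk1+ Sca1+ cells were 1.73-fold below reticular cells (-0.79 ± 0.15, adjusted p = 0.00612), or -0.89 without animal 1 (adjusted p = 0.053), and 1.72-fold below Dlk1- Sca1+ cells (adjusted p = 0.00724), where the difference was 0.81 without animal 1 (adjusted p = 0.0882) and 0.73 without animal 2 (adjusted p = 0.0571). Reticular and Dlk1- Sca1+ cells differed by -0.01 (95% interval -0.35 to 0.32).

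Hey1 and Hey2, repressors known from heart and vessel development, had their lowest levels in Dlk1+ Sca1+ and not in papillary cells. Hey1 was at 7.43, 7.67 and 7.49 in Dlk1+ Sca1+ cells (7.53 ± 0.12), 8.09, 8.15 and 8.26 in the papillary group (8.17 ± 0.09), 8.72, 8.86 and 8.57 in Dlk1- Sca1+ cells (8.72 ± 0.15) and 9.19, 9.07 and 9.46 in reticular cells (9.24 ± 0.20). No groups overlapped and each step passed. Papillary cells were 1.55-fold above Dlk1+ Sca1+ cells (0.64 ± 0.11, adjusted p = 0.000669) and 1.46-fold below Dlk1- Sca1+ cells (-0.55 ± 0.11, adjusted p = 0.00218). Reticular cells were 1.44-fold above Dlk1- Sca1+ cells (Dlk1- Sca1+ minus reticular -0.52 ± 0.11, adjusted p = 0.00501), a difference of -0.34 without animal 3 (adjusted p = 0.127). The Sca1+ populations differed 2.28-fold, with Dlk1- above Dlk1+ (1.19 ± 0.11, adjusted p = 3.16e-05), and reticular cells were 3.27-fold above Dlk1+ Sca1+ cells and 2.10-fold above papillary cells.

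Hey2, the gene with both GTGGGAA matches shown above, was read from a dim probe set, whose mean lay above that of 21.5% of genes. Its levels were 4.72, 4.59 and 4.67 in Dlk1+ Sca1+ cells (4.66 ± 0.07), 4.98, 5.04 and 5.01 in the papillary group (5.01 ± 0.03), 5.17, 5.14 and 5.16 in Dlk1- Sca1+ cells (5.16 ± 0.02) and 5.92, 5.93 and 6.06 in reticular cells (5.97 ± 0.08). The order is that of Hey1 and the groups did not overlap. Reticular cells were 2.48-fold above Dlk1+ Sca1+ (Dlk1+ Sca1+ minus reticular -1.31 ± 0.07, adjusted p = 3.94e-07), 1.95-fold above papillary (papillary minus reticular -0.96 ± 0.07, adjusted p = 2.87e-07) and 1.76-fold above Dlk1- Sca1+ cells (adjusted p = 3.39e-06). Papillary cells were 1.27-fold above Dlk1+ Sca1+ cells (0.35 ± 0.07, adjusted p = 0.00149), or 0.30 without animal 2 (adjusted p = 0.0577), and their difference from Dlk1- Sca1+ cells of -0.15 did not pass (95% interval -0.29 to 0.00, adjusted p = 0.147).

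**Figure D2:**
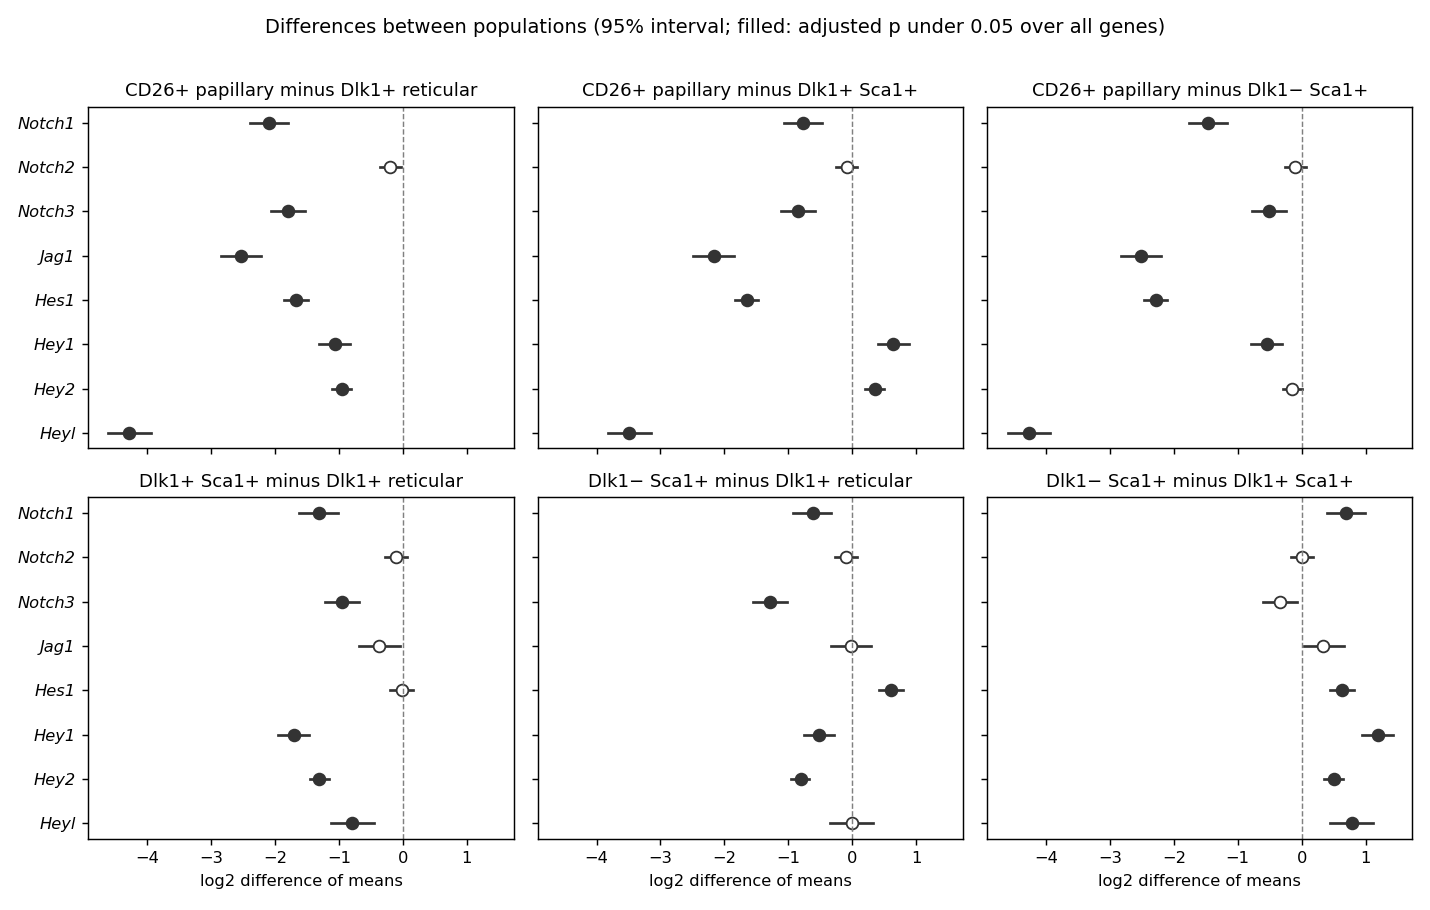
Log2 difference of the first minus the second population (horizontal axis) for the 8 genes in the 6 comparisons; points are differences of means over 3 animals and bars are 95% intervals, filled where the adjusted p was under 0.05. Heyl reaches -4.28 in papillary against reticular cells, and Hey1 and Hey2 alone lie above 0 in papillary against Dlk1+ Sca1+ cells.

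Counted by comparison, papillary against reticular cells had 7 of the 8 genes lower and 0 higher, where 27.5% of all genes passed in either direction and 13.6% were lower. The groups did not overlap for all 8 genes, as for 37.6% of all genes, and the median difference was -1.74 against -0.01 over all genes. Against Dlk1+ Sca1+ cells 5 were lower and 2, Hey1 and Hey2, higher, where 28.0% of all genes passed (13.9% lower and 14.1% higher). The median was -0.81 against 0.00, and the groups did not overlap for 7 genes (40.2% of all genes). Against Dlk1- Sca1+ cells 6 were lower and 0 higher, where 26.4% of all genes passed (13.3% lower and 13.1% higher), with a median of -1.01 against 0.00. Again 7 of 8 did not overlap (37.9% of all genes). These 3 comparisons share the papillary arrays.

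Dlk1+ Sca1+ against reticular cells had 5 genes lower (Notch1, Notch3, Hey1, Hey2 and Heyl) and 0 higher, where 8.43% of all genes passed (4.37% lower and 4.06% higher), with a median of -0.87 against -0.01 and 7 genes without overlap (21.6% of all genes). In Dlk1- Sca1+ against reticular cells 4 were lower (Notch1, Notch3, Hey1 and Hey2) and 1, Hes1, was higher, where 18.2% passed (8.80% lower and 9.36% higher), with a median of -0.31 against -0.01 and 5 genes without overlap (29.1% of all genes). This count of 5 genes past the threshold was 3 without animal 3. Between the Sca1+ populations 5 were higher in Dlk1- cells (Notch1, Hes1, Hey1, Hey2 and Heyl) and 0 lower, where 7.36% passed (3.23% higher and 4.13% lower), with a median of 0.56 against 0.01 and 6 genes without overlap (21.9% of all genes). The count past the threshold between the Sca1+ populations was 3 without animal 2. Each difference past the threshold had the same direction in 3 of 3 animals.

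Over the 4 populations together, 7 of 8 genes passed the moderated F-test, where 35.7% of all genes passed, and Notch2 did not (adjusted p = 0.277). Notch1, Notch3, Jag1, Hes1 and Heyl were lower in papillary cells than in each other population, a pattern of 7.29% of all genes. Notch1, Notch3, Hey1 and Hey2 were higher in reticular cells than in each other population, a pattern of 1.85% of all genes, and without animal 3 this count was 2. Hey1 and Hey2 were lower in Dlk1+ Sca1+ cells than in each of the rest, a pattern of 0.462%, and without animal 2 this count was 1. Hes1 alone was higher in Dlk1- Sca1+ cells than in each of the rest, a pattern of 1.54%. None of the 8 was highest in papillary (7.97% of all genes), highest in Dlk1+ Sca1+ (0.579%), lowest in reticular (1.06%) or lowest in Dlk1- Sca1+ cells (1.09%) against each of the rest.

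The 8 genes thus did not share 1 profile. With each gene centred on its own mean, the root mean square difference over the 12 arrays was smallest between Hey1 and Hey2 (0.27), then between Jag1 and Hes1 (0.36) and between Notch1 and Notch3 (0.43). The measure is not scaled to a gene's range, and the nearly level Notch2 stood 0.44 from Hey2. Within the Hey family, Heyl stood 1.64 from Hey1 and 1.66 from Hey2, and 0.73 from Jag1.

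**Figure D3:**
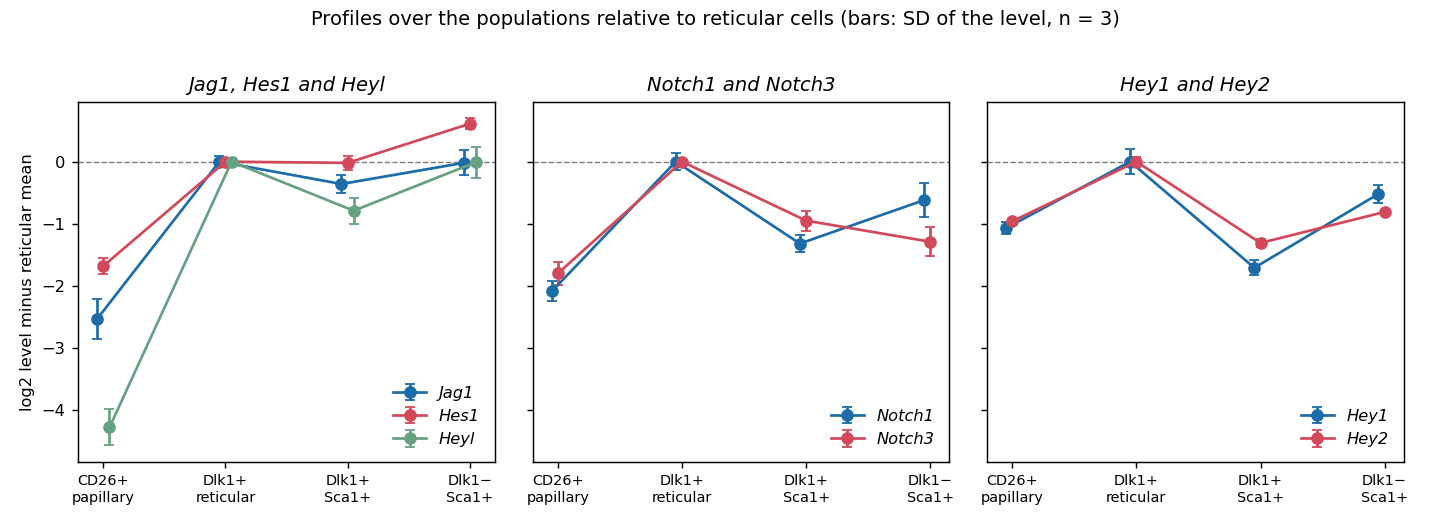
Population means of 7 genes minus the gene's own reticular mean (vertical axis, log2 units) across the 4 populations (horizontal axis), with Jag1, Hes1 and Heyl, Notch1 and Notch3, and Hey1 and Hey2 in a panel each; bars are the SD of the level over 3 animals. Hey1 and Hey2 have their lowest point in Dlk1+ Sca1+ cells, and the other genes plotted in papillary cells, down to -4.28 for Heyl.

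The genes with the most similar profile by this measure, out of all 17097, were Kera (0.29), Fhl2 (0.31) and Ets1 (0.34) for Notch1, and Dock6 (0.19), Gramd1b (0.24) and P3h2 (0.24) for Notch3. For Jag1 they were Igfbp4 (0.13), which encodes a binding protein of insulin-like growth factors, Ebf2 (0.17), a transcription factor gene of adipocyte precursors, and Bhlhe40 (0.21). Those for Hes1 were Gas7 (0.18), Hsd11b1 (0.19), whose product activates glucocorticoids, and Adamts7 (0.20). Those for Hey1 were Cmklr1 (0.30), a chemerin receptor gene, Slc26a7 (0.33) and Prokr2 (0.34), and those for Hey2 were Garem1 (0.17), Kank4 (0.20) and the collagen gene Col8a1 (0.20). Heyl, with the widest range, was matched less closely, by the collagen gene Col5a3 (0.36), Mfap5 (0.39), which encodes a microfibril protein, and Igfbp3 (0.40). These distances are descriptions over the same 12 arrays, and a small number depends on how far the gene itself ranges.

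Of a list of 49 other genes of the pathway, 41 were measured, and 16 of them passed in papillary against reticular cells, 6 higher and 10 lower in papillary cells (39.0%, against 27.5% of all genes). The count was 8 without animal 2 and 9 without the reticular array of animal 2. The list's median difference was -0.03. Against Dlk1+ Sca1+ cells 5 were higher and 8 lower in papillary cells (31.7%, against 28.0% of all genes), and against Dlk1- Sca1+ cells 6 were higher and 8 lower (34.1%, against 26.4% of all genes, or 9 of 41 genes without animal 3). The medians there were -0.06 and -0.09.

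Among the enzymes that add sugars to Notch, which changes how strongly it responds to its ligands, Lfng and Rfng were higher in papillary cells in all 3 comparisons and the other 3 (Mfng, Pofut1 and Poglut1) did not pass in any of these 3. Lfng was 0.52 ± 0.13 above reticular (adjusted p = 0.00705), 1.10 ± 0.13 above Dlk1+ Sca1+ (adjusted p = 1.88e-05) and 0.60 ± 0.13 above Dlk1- Sca1+ cells (adjusted p = 0.00312). Rfng was 0.76 ± 0.10, 0.79 ± 0.10 and 0.70 ± 0.10 higher in the same order (adjusted p = 6.08e-05, 3.91e-05 and 0.000118). Among the 8 measured proteases, Furin, which matures the receptor, was lower in papillary cells by -0.56 ± 0.09, -0.42 ± 0.09 and -0.67 ± 0.09, and Aph1b, a subunit of gamma-secretase, was higher by 0.51 ± 0.09, 0.64 ± 0.09 and 0.43 ± 0.09, all past the threshold.

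In the nuclear complex, Maml1, a Mastermind coactivator gene, was lower in papillary cells than in reticular (-0.49 ± 0.14, adjusted p = 0.0212), Dlk1+ Sca1+ (-0.54 ± 0.14, adjusted p = 0.0116) and Dlk1- Sca1+ cells (-0.70 ± 0.14, adjusted p = 0.00232). Rbpj was lower than in reticular (-0.38 ± 0.11, adjusted p = 0.023) and Dlk1+ Sca1+ cells (-0.52 ± 0.11, adjusted p = 0.00352), and its difference from Dlk1- Sca1+ cells was -0.09 ± 0.11. Nrarp, a feedback inhibitor that the pathway itself induces, was at 5.94 ± 0.23 in papillary, 6.81 ± 0.12 in reticular, 6.79 ± 0.21 in Dlk1+ Sca1+ and, with a wide spread, 7.13 ± 0.73 in Dlk1- Sca1+ cells. It was lower in papillary cells in all 3 comparisons (-0.87 ± 0.27, -0.85 ± 0.27 and -1.19 ± 0.27, adjusted p = 0.0269, 0.0301 and 0.00448). Numb, listed with the antagonists, was lower in papillary than in reticular cells (-0.59 ± 0.16, adjusted p = 0.0147). Against Dlk1+ Sca1+ (-0.43 ± 0.16, adjusted p = 0.0668) and Dlk1- Sca1+ cells (-0.38 ± 0.16, adjusted p = 0.107) Numb passed only with the animal as a block (adjusted p = 0.00325 and 0.00681). Dtx4, a Deltex ubiquitin ligase gene, was at 10.04 in papillary and 9.99 in reticular cells and at 8.95 in both Sca1+ populations, and papillary cells were 1.09 ± 0.11 above Dlk1+ Sca1+ cells (adjusted p = 8.05e-06) and 1.08 ± 0.11 above Dlk1- Sca1+ cells (adjusted p = 9.17e-06). Dtx2, of the same family, was highest in Dlk1- Sca1+ cells (9.21 ± 0.01), 1.03 ± 0.09 above papillary cells (adjusted p = 1e-06).

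**Figure D4:**
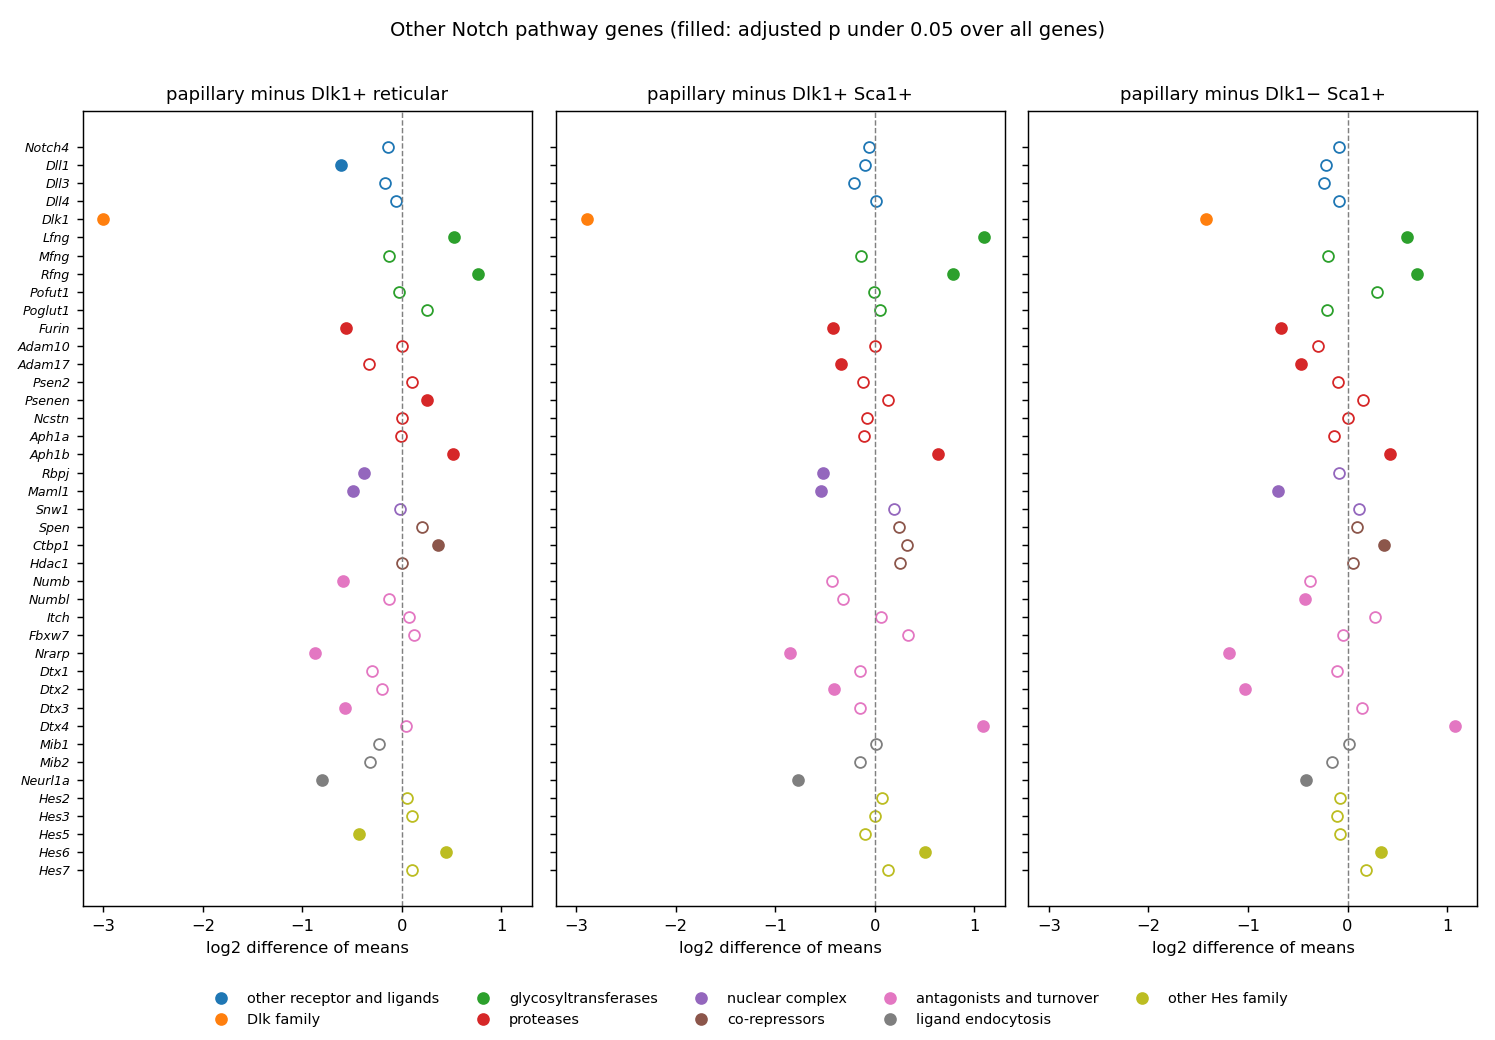
Log2 difference of papillary minus each other population (horizontal axis) for the 41 measured other genes of the pathway, grouped by role; points are differences of means over 3 animals, filled where the adjusted p was under 0.05. Lfng and Rfng lie above 0 in each comparison, Nrarp, Furin and Maml1 below 0, and Dlk1, a sorting marker, reaches -3.00.

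In the papillary comparisons, the measured Delta ligand genes Dll1, Dll3 and Dll4 moved less than Jag1. Dll1, a Delta ligand gene, was at 6.58 ± 0.09 in reticular and 5.97 ± 0.16 in papillary cells, with a difference of papillary minus reticular of -0.61 ± 0.11 (adjusted p = 0.000716), and it was lower than in reticular cells in Dlk1+ Sca1+ (-0.51 ± 0.11, adjusted p = 0.00922) and Dlk1- Sca1+ cells (-0.39 ± 0.11, adjusted p = 0.022). Notch4, Dll3 and Dll4 passed in no comparison, and Jag2 was not analysed here. Neurl1a, whose product helps ligands to be taken up by the sending cell, was lower in papillary than in reticular cells (-0.80 ± 0.12, adjusted p = 0.000188). Dlk1, a Notch-related membrane protein gene listed here as a non-canonical ligand, moved more than Jag1. Papillary minus reticular was -3.00 ± 0.10 for Dlk1, but its protein set the gates. Of the 5 other Hes genes measured, Hes6 was higher in papillary than in reticular cells (0.44 ± 0.08, adjusted p = 0.00104) and Hes5 lower (-0.43 ± 0.11, adjusted p = 0.0119).

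In the comparisons without papillary cells, the shares of the 41 genes that passed were near those of all genes. Between Dlk1+ Sca1+ and reticular cells 4 were lower (Dtx4, Lfng, Dll1 and Dtx3), or 9.76% against 8.43% of all genes, and between Dlk1- Sca1+ and reticular cells 2 were higher (Dtx2 and Poglut1) and 7 lower, or 22.0% against 18.2%. Poglut1, a glucosyltransferase gene, was 0.46 ± 0.09 above its reticular level there (adjusted p = 0.00418). Between the Sca1+ populations 2 were higher in Dlk1- cells (Dtx2 by 0.62 ± 0.09 and Lfng by 0.51 ± 0.13) and 2 lower (Dlk1 and Rbpj), or 9.76% against 7.36%, and 8 passed with the animal as a block. Without animal 1 the first of these counts was 2 of 41 and the last 2, without animal 2 the last was 2, without animal 3 the first was 1, and the middle count was 5 without animal 2 and 5 without animal 3. The last count was also 2 without the Dlk1+ Sca1+ array of animal 1 or of animal 3, or without the Dlk1- Sca1+ array of animal 1.

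Notch3 and Heyl are also known from mural cells, and 9 of 12 listed mural markers were measured. Their mean was 6.30 to 6.43 on papillary arrays, 7.37 to 8.02 on reticular, 6.97 to 7.58 on Dlk1+ Sca1+ and 6.83 to 7.03 on Dlk1- Sca1+ arrays. In papillary against reticular cells 4 of the 9 were lower (Kcnj8, Pdgfrb, Acta2 and Myh11) and 0 higher, where 13.6% of all genes were lower. With the animal as a block 7 of the 9 passed, and of these Ndufa4l2 was higher in papillary cells (0.28, adjusted p = 0.0459). The pericyte gene Rgs5 was at 7.93, 9.52 and 6.54 on the reticular arrays, Notch3 at 9.99, 10.01 and 10.09, and Heyl at 9.78, 9.90 and 9.81. The smooth muscle gene Myh11 was at 8.05, 9.35 and 7.09 on the same arrays, and animal 2 was also high in the Dlk1+ Sca1+ gate, with Rgs5 at 8.98 against 6.14 and 6.10. Without the reticular array of animal 2, papillary minus reticular was -1.81 for Notch3 and -4.24 for Heyl, and without the Dlk1+ Sca1+ array of animal 2, papillary minus Dlk1+ Sca1+ was -0.84 and -3.44. In Dlk1- Sca1+ cells Kcnj8 was at 5.52, 5.69 and 5.40 against 8.35, 8.23 and 7.72 in reticular cells. Dlk1- Sca1+ minus reticular was -0.01 for Heyl and -1.29 for Notch3. The mean of the 9 markers had the order of Notch3. It was 6.39 in papillary, 6.94 in Dlk1- Sca1+, 7.18 in Dlk1+ Sca1+ and 7.65 in reticular cells. In that order, Rgs5 averaged 5.91, 6.75, 7.07 and 8.00, Kcnj8 4.73, 5.54, 7.95 and 8.10, and Myh11 5.86, 6.20, 6.86 and 8.16. Without the block, Rgs5 passed in no comparison. Mcam and Ndufa4l2 had the order of neither Notch3 nor Heyl. Acta2 and Pdgfrb lay closer to the order of Heyl. Acta2, an actin gene of smooth muscle that activated fibroblasts also express, had means of 7.43 in papillary, 8.83 in Dlk1+ Sca1+, 9.26 in reticular and 9.47 in Dlk1- Sca1+ cells. Pdgfrb, a receptor gene of mural cells and of fibroblasts, stood at 8.65, 9.28, 9.82 and 9.48 in the same order. Both, like Kcnj8, were lower in papillary cells in all 3 comparisons. Papillary minus reticular was -1.83 ± 0.18 for Acta2 (adjusted p = 6.79e-06) and -1.17 ± 0.10 for Pdgfrb (adjusted p = 1.31e-06). For Kcnj8 it was -3.37 ± 0.16 (adjusted p = 6.74e-09). Between Dlk1- Sca1+ and reticular cells Acta2 differed by 0.21 ± 0.18 (adjusted p = 0.561) and Pdgfrb by -0.34 ± 0.10 (adjusted p = 0.0306).

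**Figure D5:**
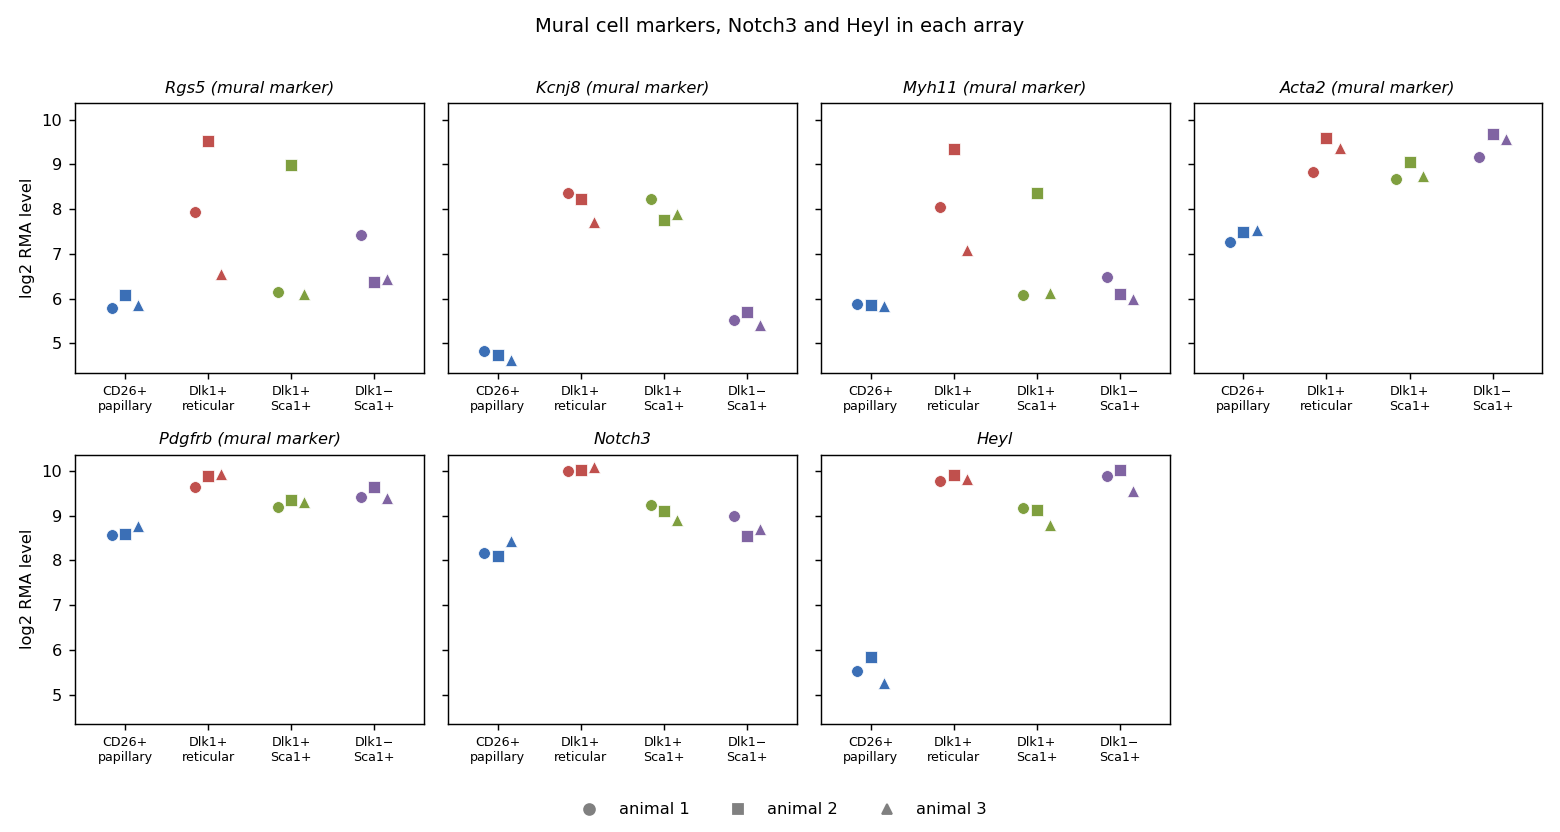
Level on each array (vertical axis, log2 RMA) of the mural markers Rgs5, Kcnj8, Myh11, Acta2 and Pdgfrb and of Notch3 and Heyl, in a panel each, across the 4 populations (horizontal axis), with symbols for animals 1 to 3. On the reticular arrays Rgs5 ranges from 6.54 to 9.52, Notch3 from 9.99 to 10.09 and Heyl from 9.78 to 9.90. Each gene shown is lowest on the papillary arrays, Rgs5 by a narrow margin (6.09 against 6.10).

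Other cell types were read from whole lists too. The 8 measured keratinocyte markers had a mean of 6.27 to 7.70 on papillary, 6.42 to 7.78 on reticular and 6.96 to 7.98 on Dlk1+ Sca1+ arrays, and of 7.16 to 9.78 on Dlk1- Sca1+ arrays, where animal 1 held the highest value. Without that array, papillary minus Dlk1- Sca1+ was -1.32 for Notch1 (adjusted p = 5.25e-06), -0.39 for Notch3 (adjusted p = 0.0315) and -4.23 for Heyl. The 12 endothelial markers had means of 5.65 to 5.77 in papillary, 6.14 to 6.33 in reticular, 6.16 to 6.70 in Dlk1+ Sca1+ and 6.13 to 6.42 in Dlk1- Sca1+ cells. In papillary cells 4 were lower than in reticular, 5 than in Dlk1+ Sca1+ and 2 than in Dlk1- Sca1+ cells. The shares of all genes lower there were 13.6%, 13.9% and 13.3%. Tek ranged from 5.28 in papillary over 6.87 in reticular and 8.13 in Dlk1+ Sca1+ to 9.77 in Dlk1- Sca1+ cells. Cldn5 had means of 5.08 to 5.19 and Egfl7 of 7.26 to 7.41. Skeletal muscle genes (7) had population means of 6.19 in reticular, 5.81 in Dlk1+ Sca1+, 5.46 in Dlk1- Sca1+ and 5.36 in papillary cells. Of the 7, 2 (Acta1 and Tnnc2) were lower in papillary than in reticular cells, as were 13.6% of all genes. Immune genes (8) had means of 5.29 to 5.45, and those of melanocytes and Schwann cells (5) of 5.71 to 6.47.

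The 6 measured markers of the dermal papilla and its condensate, the cell cluster under a growing hair follicle, had a mean of 5.61 in Dlk1+ Sca1+, 6.02 in papillary, 6.83 in reticular and 6.88 in Dlk1- Sca1+ cells. Between the Sca1+ populations 4 of the 6 were higher in Dlk1- cells and 0 lower (all genes 3.23% and 4.13%). In Dlk1+ Sca1+ against reticular cells 4 were lower and 0 higher (4.37% and 4.06%). In papillary against reticular cells 3 were lower and 1 higher (13.6% and 13.9%). Against Dlk1+ Sca1+ cells 1 was lower in papillary cells and 2 were higher (13.9% and 14.1%). Against Dlk1- Sca1+ cells 4 were lower in papillary cells and 1 higher (13.3% and 13.1%). In Dlk1- Sca1+ against reticular cells 1 was lower and 1 higher (8.80% and 9.36%). Prom1 was at 7.79 in reticular, 6.93 in Dlk1- Sca1+, 5.82 in papillary and 4.88 in Dlk1+ Sca1+ cells, which is the order of Hey1 and Hey2. Wif1 was highest in papillary cells (10.34, against 9.21 in reticular cells, a difference of 1.13 ± 0.16, adjusted p = 0.000122), Sox18 was lowest there (6.53, against 7.48 in Dlk1+ Sca1+ cells), and Sox2 stood at 3.69 to 3.94 as population means. The part of any of these cell types in the levels of the 8 genes was not tested.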

How the data were processed

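Expression was measured on 12 Affymetrix arrays, 3 per sorted population. The authors deposited log2 values, rounded to 2 decimals; the submitters' processing notes name RMA and affy. Versions and a genome build are not given in the sources used here. The RMA method subtracts background, equalizes the arrays by quantiles and summarizes each probe set, and together with amplification over 21 cycles it can compress fold differences of dim probe sets. No further normalization was applied. Of 45141 probe sets, 104 controls were left out, 28898 had 1 gene symbol, 551 several and 15588 none here, and per gene the one with the highest mean was used. All 12 arrays entered 1 fit in limma 3.58.1 (R 4.3.3) with a mean per population, 8 residual degrees of freedom, 6 contrasts and Benjamini-Hochberg adjustment within each. The fit was tested on simulated data. No filter on low values was used, so all 8 genes were tested.

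The labels number 3 littermates, and a shared number was read as 1 animal. Such arrays' deviations from the population means correlated at 0.266 on average (0.086 to 0.432, 17 of 18 pairs above 0.1). The animal as a block, other normalizations, filters and probe sets, and leaving out arrays or animals were tried.

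The 8 genes and the lists were chosen with earlier results of these data known. Other pathway genes were named from the list when among the 6 largest differences past the threshold in a comparison or at a difference of at least 1, with a few more chosen after their values were seen. The 3 most similar genes, apart from the 8 and genes with clone or model names, were listed for genes whose population means span at least 1.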

Additional observations from a re-analysis of the deposited data

How the results depend on the processing

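Of 1086 recomputed differences of the 8 genes, 12 changed side of the threshold and 0 reversed as called values, and 15 changed sign while past the threshold in neither setting. Apart from leaving out 1 animal or 1 array and from other probe sets, 2 of 336 changed, both Notch2 in papillary against reticular cells. Notch2 passed with the animal as a block (adjusted p = 0.026, making 8 of 8 genes) and with a trended robust fit (adjusted p = 0.0397). The 336 include fits of each comparison on only the 6 arrays of its 2 populations, which changed 0 of 48. The block changed no other call of the 8 genes. It raised the other pathway genes that passed between the Sca1+ populations from 4 to 8, and all genes there from 1258 to 1897. The other probe sets changed 0 of 30 calls, though sizes differed. Leaving out 1 animal changed 9 of 144 and leaving out 1 array 1 of 576. The 576 include comparisons that do not involve the left-out array, where the difference keeps its size and only its adjusted p can move. Over those settings the genes of the 8 that passed were 7 to 7 in papillary against reticular, 6 to 7 against Dlk1+ Sca1+, 5 to 6 against Dlk1- Sca1+, 4 to 5 in Dlk1+ Sca1+ against reticular, 3 to 5 in Dlk1- Sca1+ against reticular, 3 to 6 between the Sca1+ populations and 7 to 7 in the F-test. Those lowest in papillary were 4 to 5, highest in reticular 2 to 4, lowest in Dlk1+ Sca1+ 1 to 2 and highest in Dlk1- Sca1+ 1 to 1. In the same order of comparisons, the other pathway genes that passed were 8 to 18, 10 to 15, 9 to 16, 1 to 5, 5 to 8 and 2 to 5, and all genes 3243 to 4750, 3442 to 4866, 3120 to 4586, 498 to 1502, 1681 to 3118 and 532 to 1306. Fewer arrays entered these fits. Centring each array on its median moved the split of all genes in Dlk1+ Sca1+ against reticular cells from 694 higher and 747 lower to 894 and 625, with a shift of the median of all genes of at most 0.05 in any comparison.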
